A study of Mus musculus with 6 samples.

Results

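The response of MS-1 endothelial cells to TGF-β2 was compared between cells given an inhibitor of miR-31 and cells given other inhibitors. MS-1 is an immortalised mouse line with endothelial features. The cells were transfected with locked nucleic acid (LNA) inhibitors, which are chemically stiffened antisense oligonucleotides that bind a microRNA and keep it from its targets. There were 3 inhibitors, directed at miR-31, at miR-27 or, as the negative control (LNA-NC), at neither. Each was followed by 72 h without TGF-β2 or with TGF-β2 at 1 ng/ml, which gave 6 conditions and 6 libraries. Every condition had 1 library, so no difference below has a replicate check, no test was made, and all values describe these libraries. Whether these came from separate cultures is not stated in the labels.

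The deposited values are FPKM, fragments per kilobase of transcript scaled to the mapped fragments of the library. For each gene the response was the difference in log2(FPKM + 1) between the libraries with and without TGF-β2 of the same inhibitor. The shift was the response with the miR-31 inhibitor minus the mean response over the other inhibitors, LNA-NC and miR-27. Genes were used where the mean over the 6 libraries was at least 1 FPKM and no library was listed at 0, which kept 11771 of 29955 gene names. Zfp712 lay just inside that limit with a mean of 1.00 FPKM (1.0010) and Zfp493 just outside it with 0.9989. A response was called set apart where it lay above both or below both of the other responses and farther from the nearer of them than those lay from each other. "Rose" and "fell" are used below for a response of at least 0.5 in size. A gene "passed" or lay "past" a limit of the shift where it was also set apart.

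TGF-β is a secreted ligand that signals through receptor kinases and Smad transcription factors. In endothelial cells it can start a transition to a mesenchymal state, with loss of junction genes and gain of matrix, contractile and secreted proteins. miR-31 is a microRNA, and like others it lowers the output of messenger RNAs that hold a match to its seed. Most named genes with a response higher by at least 1 here belong to a different programme, described next. The integrated stress response starts when kinases phosphorylate the translation factor eIF2α, which slows general translation and favours synthesis of ATF4. ATF4 then activates genes of amino acid supply and, with CHOP, genes of growth arrest and death. The unfolded protein response adds the IRE1-XBP1 and ATF6 branches, which raise chaperones and degradation factors of the endoplasmic reticulum (ER).

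The mature sequences that the inhibitors are directed at are shown 5′ to 3′ because the seed defines the matches counted below, with bases 2 to 8, the seed, in capitals. They are from RefSeq on GRCm38.p6, and lie at chr4:88910614-88910635 on the minus strand, chr8:84208727-84208747 on the plus strand and chr13:63300760-63300780 on the plus strand. The labels name miR-27 without its copy, so both mature forms are given.
mmu-miR-31-5p: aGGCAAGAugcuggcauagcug
mmu-miR-27a-3p: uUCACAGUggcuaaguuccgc
mmu-miR-27b-3p: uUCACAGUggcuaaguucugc
The miR-27 forms share a seed, and the miR-31 seed is different. Mir31, Mir27a and Mir27b were each listed at 0 in all 6 libraries, so the table does not show whether the microRNAs were blocked.

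The libraries were alike in their general measures. Each listed 11542 to 11612 of the genes used at 1 FPKM or more, and their medians lay between 12.3 and 12.7 FPKM. Totals of fragments are not in the table. Steps between low values in 702 genes put the depth of the TGF-β2 library of the miR-31 inhibitor at 0.859 of that with the negative control and no TGF-β2, within the 0.812 to 0.901 of the other 4 libraries. Each value is the most common ratio, held by 86 of the 702 genes (12.25%) for that library, so it is a rough estimate. The 9 endothelial markers summed to 1322 to 1487 FPKM, with 7 or 8 of them at 1 FPKM or more and Pecam1 highest in every library. Of the 8 leukocyte markers Cd68 held nearly all of the sum, the epithelial sum was mostly Krt18, and the pancreas markers Ins1, Ins2, Gcg, Pdx1, Cpa1 and Amy2b did not pass 0.033 FPKM in sum.

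With the miR-31 inhibitor, a group of stress response genes was higher after TGF-β2 where the same genes were lower or nearly level after TGF-β2 with the other inhibitors. The response was higher by at least 1 and set apart for 35 of 11771 genes (0.297%) and lower by at least 1 for 8 (0.0680%). At 0.5 the counts were 176 higher (1.50%) and 79 lower (0.671%). The upward shifts reached 3.23 for the named gene Ddit3, while on the lower side the only named genes past 1 in size were Hexdc and Myt1, whose names the table separates poorly (described last). Cxcl2 at 1.00 was the last named gene inside the upper limit and Atf4 at 0.97 the first outside it. At 0.5 the nearest named genes were Pdia4 (0.5011) and Cebpg (0.4994), and on the lower side Mex3a (-0.51) and Ttc13 (-0.4952).

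The same measure for the other inhibitors gave smaller counts. The miR-27 inhibitor response, set against the mean of the others, was higher by at least 1 for 10 genes (0.0850%) and lower for 5 (0.0425%), and at 0.5 for 32 (0.272%) and 22 (0.187%). The negative control response gave 3 (0.0255%) and 4 (0.0340%) at 1, and 43 (0.365%) and 29 (0.246%) at 0.5. The standard deviation of the shift over all genes was 0.220 for the miR-31 inhibitor, 0.165 for the miR-27 inhibitor and 0.181 for the negative control. Without regard to size, 46.7% of genes were set apart with the miR-31 inhibitor, 26.6% with the miR-27 inhibitor and 26.8% with the negative control. These measures share the same 6 libraries and are not separate evidence.

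**Figure D1:**
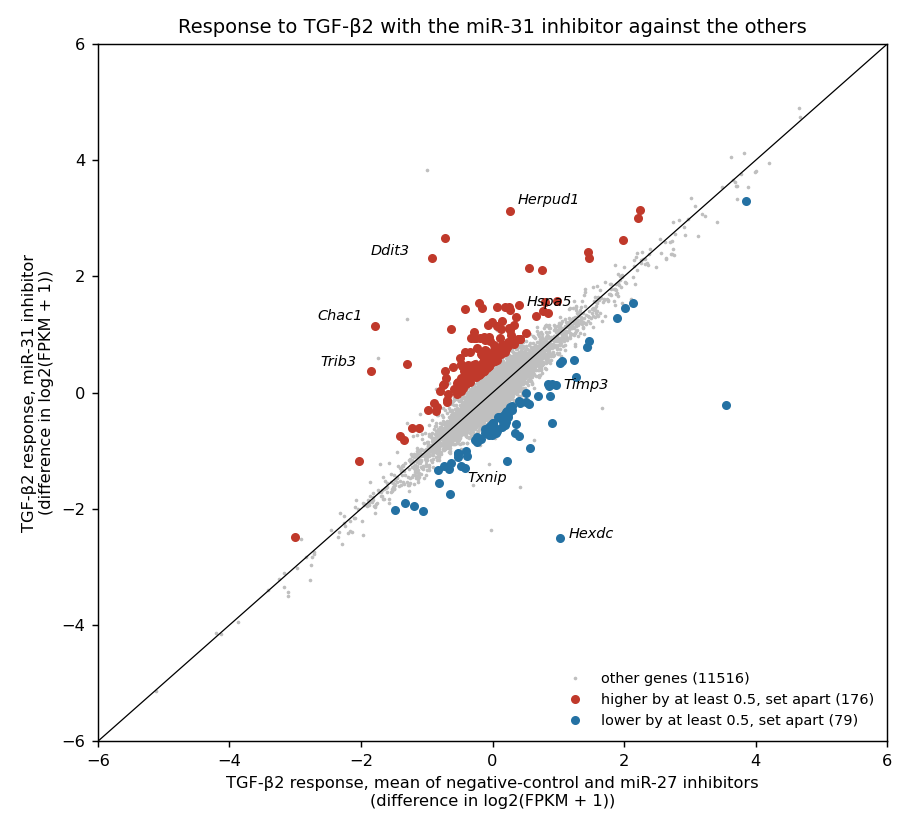
Each point is a gene. The horizontal axis is the mean TGF-β2 response over the other inhibitors and the vertical axis the response with the miR-31 inhibitor, both as differences in log2(FPKM + 1), and the line marks equal responses. Most of the 11771 genes lie along the line, the 176 red genes lie above it and the 79 blue genes below it, with Ddit3, Chac1, Herpud1 and Trib3 labelled among those far above it.

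The shifts lay mostly in the TGF-β2 library of the miR-31 inhibitor. Of the 176 genes with a higher response, 164 had the larger difference from the mean of the other inhibitors in the TGF-β2 state, and in 171 that library lay above both others. The median difference of these genes was 0.65 with TGF-β2 and -0.03 without it, in log2(FPKM + 1). Among genes with a lower response, 66 of 79 had the larger difference with TGF-β2, 75 lay below both others there, and the medians were -0.56 with TGF-β2 and 0.09 without it. Since this is a single library, an effect of the miR-31 inhibitor under TGF-β2 and an event in that culture or library cannot be told apart.

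**Figure D2:**
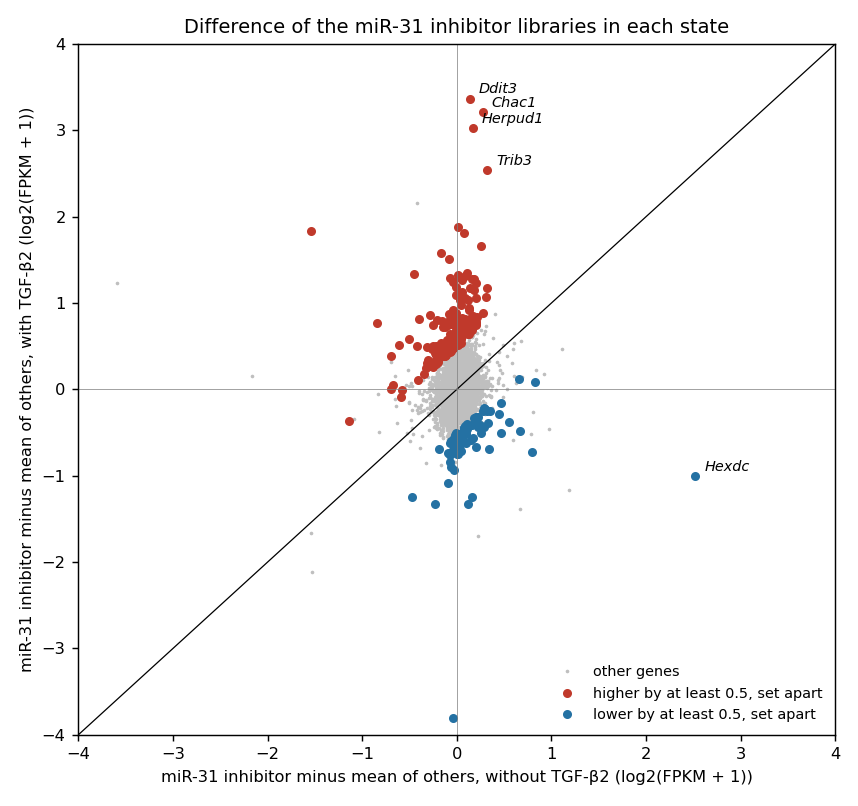
Each point is a gene, with the miR-31 inhibitor library minus the mean of the other inhibitors without TGF-β2 on the horizontal axis and with TGF-β2 on the vertical axis, in log2(FPKM + 1). The red genes with a higher response spread upward near a horizontal value of 0 (medians 0.65 with and -0.03 without TGF-β2), and 66 of the 79 blue genes have the larger difference with TGF-β2, while the other 13, Hexdc among them, have it without.

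The shifted genes followed several patterns. Of the 176 with a higher response, 86 rose with the miR-31 inhibitor where the mean of the others stayed under 0.5 in size, 13 rose in both, 20 fell with the others and stayed under 0.5 with the miR-31 inhibitor, 6 fell in both, and 47 stayed under 0.5 in both. The remaining 4 fell with the others and rose with the miR-31 inhibitor. Of the 79 with a lower response, 30 fell with the miR-31 inhibitor alone, 13 fell in both, 11 rose with the others alone, 9 rose in both, 3 rose with the others and fell with the miR-31 inhibitor, and 13 stayed under 0.5 in both. Taking the sign of the responses at any size, 84 of the 176 and 31 of the 79 went in the direction opposite to both other responses.

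The ATF4 and CHOP list had the highest median shift of the lists used. Of the 28 listed genes 22 could be used, and 13 of these had a higher response by at least 0.5 and 0 a lower one, beside 176 and 79 of all 11771 genes. The median shift of the list was 0.81 and that of all genes -0.02. The median response of the list was -0.53 under LNA-NC, -0.45 under the miR-27 inhibitor and 0.51 under the miR-31 inhibitor. The lists of genes were chosen with earlier results of these data known, so their counts are a description.

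Ddit3, which encodes CHOP, went from 41.0 to 19.6 FPKM with TGF-β2 under the negative control, from 70.1 to 39.8 FPKM under the miR-27 inhibitor and from 59.2 to 298 FPKM under the miR-31 inhibitor. It fell in both comparison arms (LNA-NC and the miR-27 inhibitor) and rose in the miR-31 arm, and the 298 FPKM were 10.03 times the mean of the other libraries with TGF-β2. In the table Ddit3 has the place chr10:126727849-126748842 (mm9) together with Mars, the methionyl-tRNA synthetase gene. Mars had a shift of 0.07, with 46.1 FPKM under the miR-31 inhibitor and TGF-β2 against 39.1 and 45.3 FPKM under the negative control and the miR-27 inhibitor.

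Chac1, an enzyme that breaks down glutathione and a known ATF4 target, changed from 32.2 to 7.06 FPKM under the negative control, from 49.3 to 16.4 FPKM under the miR-27 inhibitor and from 48.4 to 109 FPKM under the miR-31 inhibitor (shift 2.94). Trib3, a pseudokinase that restrains ATF4 and AKT, changed from 47.7 to 11.1, from 72.7 to 21.7 and from 73.7 to 95.3 FPKM in the same order (shift 2.22). Without TGF-β2 the libraries of both microRNA inhibitors stood close together for these genes and the negative control was lowest. With TGF-β2 the miR-31 library was above its level without it for both genes, though for Trib3 by less than 0.5 on the log2 scale, and the other libraries fell. Atf3, a stress-induced transcription factor, was at 31.6, 31.8 and 32.0 FPKM without TGF-β2 under the negative control, miR-27 and miR-31 inhibitors and at 25.1, 21.96 and 88.8 FPKM with it (shift 1.86). The miR-31 library with TGF-β2 stood apart from the other 5, which lay between 21.96 and 32.0 FPKM.

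Atf4 itself went from 221 to 126 FPKM under the negative control, from 289 to 189 FPKM under the miR-27 inhibitor and from 287 to 343 FPKM under the miR-31 inhibitor (shift 0.97). Its own response in the miR-31 arm was 0.26, and the other arms fell. ATF4 is regulated mainly at translation, which RNA levels do not show. Sesn2, a leucine sensor that restrains mTORC1, changed from 4.56 to 2.23, from 5.49 to 3.62 and from 5.34 to 12.5 FPKM (shift 1.73). Nupr1, a small stress-induced nuclear protein, changed from 71.9 to 69.7, from 116 to 131 and from 109 to 303 FPKM (shift 1.41). In each of these genes the highest of the 6 libraries was the miR-31 library with TGF-β2.

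Feedback and partner genes of the programme moved in the same direction by less. Ppp1r15a (GADD34), which brings a phosphatase to eIF2α and so reverses the response, had a shift of 1.04, with 57.1 FPKM in the miR-31 library with TGF-β2 and 21.3 to 37.2 FPKM in the other 5. Ddit4, an inhibitor of mTORC1, rose in all arms, to 11.5, 14.3 and 27.3 FPKM under the negative control, miR-27 and miR-31 inhibitors (shift 0.92). Jdp2, a bZIP repressor, had a shift of 0.82 and Asns, asparagine synthetase, of 0.53. Asns fell in every arm, from 105 to 39.0, from 135 to 55.0 and from 137 to 78.1 FPKM in the same order, so for Asns the miR-31 response was a smaller fall. Gdf15, a secreted stress cytokine, also fell in every arm (shift 0.47). Members that did not follow included Ndrg1 (-0.23) and Tbpl1 (-0.08).

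**Figure D3:**
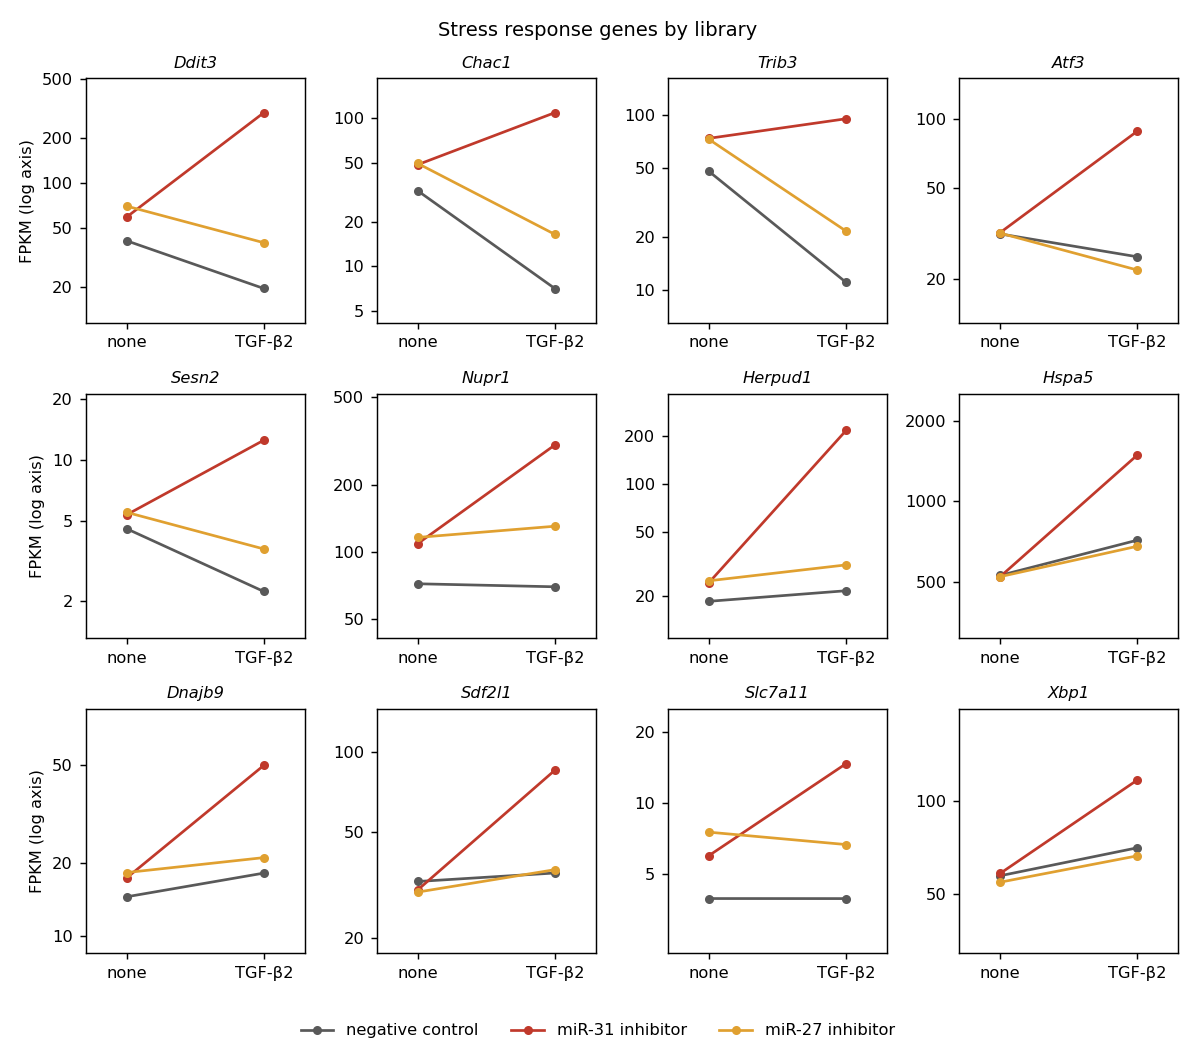
FPKM on a log axis without and with TGF-β2 for 12 stress response genes, with a line for each inhibitor and 1 library at each point. In every panel the red point with TGF-β2, the miR-31 inhibitor library, is the highest of the 6, while without TGF-β2 the red point lies near that of the miR-27 inhibitor.

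Promoter sequences are shown for genes of this programme because members that move together can share a motif. ATF4 with a C/EBP partner binds the composite motif TGATGNAA. It was searched on both strands of the RefSeq promoter windows (GRCm38.p6), 250 bases before to 50 after the first listed start of each gene. The motif was found in 8 of the 23 windows (34.8%) of named genes with a response higher by at least 1, in 6 of 20 (30%) of the ATF4 and CHOP list, and in 168 of 8114 windows (2.07%) of all named genes used. That list was drawn up around ATF4 and CHOP, so its share was partly fixed in advance. The stretches below run in the direction of transcription with the motif in capitals and 25 bases on each side. They lie at chr2:119351024-119351081 (plus strand), chr8:94386292-94386349 (plus), chr1:191183411-191183468 (minus), chr7:126625548-126625605 (minus), chr3:50443628-50443704 (minus) and chr13:51846549-51846606 (plus).
Chac1: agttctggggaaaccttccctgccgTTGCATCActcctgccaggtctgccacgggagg
Herpud1: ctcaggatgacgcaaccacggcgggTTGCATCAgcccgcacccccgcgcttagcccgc
Atf3: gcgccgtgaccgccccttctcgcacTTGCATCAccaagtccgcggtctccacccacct
Nupr1: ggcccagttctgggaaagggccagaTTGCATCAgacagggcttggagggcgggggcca
Slc7a11: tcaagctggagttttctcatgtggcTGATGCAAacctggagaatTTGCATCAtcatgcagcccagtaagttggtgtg
Gadd45g: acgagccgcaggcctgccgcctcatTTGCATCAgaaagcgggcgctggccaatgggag
TTGCATCA is the reverse complement of TGATGCAA, so most of these matches lie on the opposite strand, and the Slc7a11 window holds 1 match on each. Trib3 and Slc1a4 also held a match, at position 14 after the start for Trib3 and starting 4 bases before it for Slc1a4. Ddit3 held no match in this window. A match is a stretch of letters and not a measured site.

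Genes that bring amino acids into the cell also included several with a higher response. Of 12 amino acid transporters used, 5 had a response higher by at least 0.5 and 0 lower, beside 1.50% and 0.671% of all genes. Their median shift was 0.43. Slc7a11, the cystine and glutamate exchanger whose promoter is shown above, was at 3.96, 7.54 and 6.01 FPKM without TGF-β2 and at 3.96, 6.68 and 14.7 FPKM with it, under the negative control, miR-27 and miR-31 inhibitors (shift 1.24). Slc3a2, the heavy chain that carries Slc7a11 and Slc7a5 to the surface, was level in both comparison arms, at 82.4 and 84.5 FPKM and at 114 and 115 FPKM, and went from 106 to 188 FPKM under the miR-31 inhibitor (shift 0.79). Slc1a4, a carrier of neutral amino acids, went from 8.64 to 5.35 and from 11.8 to 8.71 FPKM in those arms and from 11.6 to 18.1 FPKM under the miR-31 inhibitor (shift 1.10). The miR-31 library with TGF-β2 was the highest for each of these carriers. Slc7a5 (0.61) and Slc6a9 (0.57) went down less with the miR-31 inhibitor than with the others, and Slc6a6, a taurine carrier, went the other way at -0.43.

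Enzymes of serine, glycine and one-carbon synthesis went down in all arms on their median and by less in the miR-31 arm. Their median response was -0.67 under LNA-NC, -0.61 under the miR-27 inhibitor and -0.30 under the miR-31 inhibitor, and 12 of 13 shifts lay above 0. Mthfd2, a mitochondrial folate enzyme, was the 1 member past 0.5 (shift 0.68), and went from 90.8 to 40.7, from 114 to 63.5 and from 114 to 92.6 FPKM under the negative control, miR-27 and miR-31 inhibitors. Of 20 cytosolic aminoacyl-tRNA synthetases, which charge tRNAs with amino acids, 17 had a shift above 0 with a median of 0.18. Cars, the cysteine enzyme, was the 1 past 0.5 (0.54), and Aars, the alanine enzyme, stayed at 75.5 FPKM with and without TGF-β2 under the miR-31 inhibitor while it fell from 67.6 to 46.6 FPKM under the negative control. The 1 past 0.5 in each list stands beside 1.50% of all genes, and the shifts above 0 beside 5169 of 11771.

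ER chaperone and quality control genes formed the other main group. Of 21 used, 10 had a response higher by at least 0.5 and 0 lower, beside 1.50% and 0.671% of all genes. Their median shift was 0.47. Unlike the ATF4 targets, these genes already had a small positive response in the comparison arms, with medians of 0.24 and 0.26, and their median was 0.92 under the miR-31 inhibitor. Hspa5 (BiP), the main ER chaperone and a sensor of unfolded protein, was at 527, 522 and 522 FPKM without TGF-β2 and at 715, 678 and 1493 FPKM with it, under the negative control, miR-27 and miR-31 inhibitors (shift 1.11). The 3 libraries without TGF-β2 were nearly equal, and the miR-31 library with it was 2.14 times the mean of the others.

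Herpud1, an ER membrane protein of the degradation pathway that appears in both lists, went from 18.4 to 21.5 and from 24.8 to 31.2 FPKM in the comparison arms but reached 218 FPKM from 24.1 FPKM in the miR-31 arm (shift 2.86). Syvn1 (HRD1), the ubiquitin ligase of that pathway, was between 4.25 and 4.53 FPKM in 5 libraries and at 11.1 FPKM in the miR-31 library with TGF-β2 (shift 1.07). Sdf2l1, an ER luminal cofactor, was between 29.8 and 36.2 FPKM in 5 libraries and at 85.7 FPKM in that library (shift 1.28). All 3 were thus highest in the same library. Dnajb9, a BiP co-chaperone, was there at 49.9 FPKM against 14.5 to 21.0 FPKM elsewhere (1.23). Creld2, a secreted ER stress protein, was at 120.2 FPKM against 47.4 to 55.9 FPKM (1.09).

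Xbp1, the transcription factor of the IRE1 branch, went from 57.3 to 70.6, from 54.6 to 66.5 and from 58.3 to 117 FPKM under the negative control, miR-27 and miR-31 inhibitors (shift 0.71). Gene-level FPKM does not separate its spliced from its unspliced form. Manf, a protein released under ER stress, had a shift of 0.83. Calr (0.52), Pdia4 (0.50) and Hsp90b1 (0.47) followed with smaller shifts, and Canx was at 0.00 and Pdia3 at 0.06. Among genes outside the lists, named after their values were seen, Alg12 (0.83), a glycosyltransferase of the ER, Piga (0.83), of glycolipid anchor synthesis, and Ficd (0.64), which modifies BiP, had higher responses.

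The ER stress response element, CCAAT then 9 bases then CCACG, is bound by ATF6 and XBP1 with the factor NF-Y, and was searched on both strands of the same windows after the values were seen. It was found in 8 of 18 windows (44.4%) of the ER list and in 14 of 8114 (0.173%) of all named genes used. In named genes higher by at least 1 it was found in 3 of 23 (13.0%). The ER list was drawn up around chaperones and the XBP1 and ATF6 branches, so its share was partly fixed in advance. Examples are given with the element in capitals, at chr2:34772000-34772068, chr15:88819495-88819563 and chr19:6046507-6046575, all on the plus strand. They show the element in both directions, since the Creld2 copy begins with the complement CGTGG.
Hspa5: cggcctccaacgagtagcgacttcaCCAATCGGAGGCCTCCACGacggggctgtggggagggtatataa
Creld2: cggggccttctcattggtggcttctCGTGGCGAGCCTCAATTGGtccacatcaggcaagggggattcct
Syvn1: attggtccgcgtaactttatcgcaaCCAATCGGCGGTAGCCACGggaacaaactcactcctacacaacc

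No gene for a sensor of these pathways passed 0.5, which for 9 genes is near the share of all genes (1.50% higher and 0.671% lower). The 4 eIF2α kinase genes Eif2ak1, Eif2ak2, Eif2ak3 (PERK) and Eif2ak4 (GCN2), with Ern1 (IRE1), Atf6, Atf6b, Mbtps1 and Creb3l2, had shifts between -0.19 and 0.14. This set was put together after values were seen. Eif2ak3 went from 6.23 to 8.46, from 5.90 to 8.04 and from 5.77 to 7.96 FPKM under the negative control, miR-27 and miR-31 inhibitors, with a shift of 0.02. These sensors act through their proteins, whose activity the RNA level does not show.

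Across the 5 lists of amino acid and ER stress genes, 76 of the 86 genes used had a shift above 0, beside 5169 of all 11771 genes. They made up 15 of the 25 named genes with a response higher by at least 1 (60%). This is 17.4% of the genes in those lists, beside 0.297% of all genes used. At 0.5 they made up 28 of 136 named genes (20.6%), so most of the smaller upward shifts lay elsewhere. None of the 53 named genes with a response lower by at least 0.5 was in these lists. The lists hold 86 genes beside 10120 named genes used in all, so this count of 0 carries little.

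In other stress programmes single members passed 0.5, while the list medians lay near that of all genes (-0.02). Beside the counts below, 1.50% of all genes were higher and 0.671% lower by that much. The heat shock list had a median of 0.01. Of 14 heat shock genes Hspa1b alone passed 0.5, at 1.75, with 10.7 FPKM in the miR-31 library with TGF-β2 and 2.90 to 4.05 FPKM in the other 5. Its near-identical copy Hspa1a was under 0.1 FPKM in every library, and how reads were divided between the copies is not given in the sources used here. Of 21 NRF2 antioxidant genes 3 passed, Osgin1 (1.36), Slc7a11 and Hmox1, and the median of the list was -0.02. Hmox1, heme oxygenase, went from 49.3 to 47.0, from 74.4 to 65.9 and from 75.6 to 118 FPKM under the negative control, miR-27 and miR-31 inhibitors (shift 0.75). Of 18 p53 targets 2 passed, Sesn2 and Gadd45a, both also known ATF4 targets, with a list median of 0.06.

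The GADD45 genes, stress sensors linked to growth arrest, all shifted upward. Gadd45a rose from 22.3 to 75.2, from 48.8 to 115 and from 41.4 to 211 FPKM under the negative control, miR-27 and miR-31 inhibitors (shift 0.86). Gadd45b was also up in every arm (0.61), and Gadd45g, whose promoter is shown above, went from 25.1 to 29.1, from 21.3 to 27.0 and from 18.8 to 51.9 FPKM (1.15). Of 17 AP-1 and early growth genes, 3 passed 0.5 (Atf3, Ier2 and Egr1), beside 1.50% of all genes. The list had a median of 0.17 and a lowest shift of -0.32. Ier2 (0.88), Egr1 (0.62, or 1.18 with a pseudocount of 0.1) and the growth gene Myc (0.62) went down in the comparison arms, and went down less (Egr1) or slightly up (Myc, Ier2) in the miR-31 arm. The cell cycle inhibitor Cdkn1a, a p53 target, had a shift of -0.21.

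Of 8 host transcripts of small nucleolar RNAs, a group chosen after values were seen, 2 had a response higher by at least 0.5 and 0 lower. The shares of all genes were 1.50% and 0.671%, and the median shift of the group was 0.20. Snhg12, one such host transcript, was at 61.0 FPKM in the miR-31 library with TGF-β2 and at 22.3 to 34.0 FPKM elsewhere (1.21). Snhg1, a similar host named after its values were seen, was at 638 FPKM there and at 235 to 352 FPKM elsewhere (1.12). Such host transcripts are degraded during translation, and Snhg1 lies beside Slc3a2 on chromosome 19. R3hdm2 had a shift of 2.57 but was not set apart, because its responses under LNA-NC and the miR-27 inhibitor went in opposite directions. Of 291 zinc finger genes named Zfp, a group also chosen after values were seen, 231 had a shift above 0, beside 5169 of all 11771. Their median was 0.12, and 10 passed 0.5, beside 1.50% of all genes.

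Id3, an inhibitor of helix-loop-helix factors that BMP and TGF-β signals control, was the single member of 9 BMP and Id genes to pass 0.5. It rose from 1.78 to 13.5, from 2.35 to 12.6 and from 1.95 to 22.7 FPKM under the negative control, miR-27 and miR-31 inhibitors (shift 0.80). Among interferon genes 2 of 34, Mx2 (0.70) and Mx1 (0.56), passed. Beside both counts, 1.50% of all genes were higher and 0.671% lower by at least 0.5. The interferon list had 25 of 34 shifts above 0, beside 5169 of all 11771, with a median of 0.09. Mx1 was used only through its 1.65 FPKM in the miR-31 library with TGF-β2, since the other 5 lay between 0.769 and 1.15 FPKM, and with a pseudocount of 0.1 its shift was 0.97. Cxcl2, a chemokine that attracts neutrophils, went from 6.68 to 5.46 and from 7.18 to 6.04 FPKM in the comparison arms and reached 10.3 FPKM from 5.63 FPKM in the miR-31 arm (1.00).

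On the lower side, single genes of the matrix, the cell surface and secretion responded less or fell more with the miR-31 inhibitor. Timp3, an inhibitor of matrix metalloproteinases, rose from 42.1 to 91.3 FPKM under the negative control and from 48.3 to 80.2 FPKM under the miR-27 inhibitor and went from 42.7 to 47.5 FPKM under the miR-31 inhibitor (shift -0.76). Timp3 lies inside Syn3, which has the same place in the table and moved with it (-0.83), so their fragments may not be fully separated. Pcolce2, an enhancer of collagen processing, showed the same pattern, from 15.3 to 28.1, from 13.7 to 25.6 and from 13.8 to 15.4 FPKM (-0.69). For both genes the TGF-β2 rise of the other arms was nearly missing with the miR-31 inhibitor. Pcolce2 was named after its values were seen.

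Of the cytokine and chemokine genes used, Angptl2 and Cx3cl1 had a lower response. Angptl2, a secreted protein linked to vascular inflammation, went from 3.23 to 7.19, from 4.05 to 7.49 and from 4.12 to 4.54 FPKM under the negative control, miR-27 and miR-31 inhibitors (shift -0.74). Cx3cl1, a membrane-bound chemokine, rose in every arm, to 4.29, 3.98 and 2.54 FPKM from 0.839 to 0.918 FPKM (-0.59). For both genes the miR-31 library was the lowest with TGF-β2. Il6 (-0.38, or -0.15 against the miR-27 response alone and -0.60 against LNA-NC alone) was not set apart. Cxcl16, whose mean was under 1 FPKM, had responses of 0.64, 0.70 and 0.66 under the negative control, miR-27 and miR-31 inhibitors (shift -0.01). Ccl17, a chemokine, was at 19.5, 16.6 and 6.83 FPKM with TGF-β2, and was listed at 0 in the miR-31 library without it, so no response is given for it. Of 20 chemokines and cytokines used, 1 was higher and 2 lower at 0.5, beside 1.50% and 0.671% of all genes. In this list 8 lay above 0, beside 5169 of all 11771, and the median shift was -0.20.

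Several abundant genes fell more with the miR-31 inhibitor. Plau, the urokinase protease, fell from 416 to 226, from 412 to 247 and from 467 to 159 FPKM under the negative control, miR-27 and miR-31 inhibitors (shift -0.74). S100a4, a calcium-binding protein often used as a mesenchymal marker, fell from 884 to 571, from 764 to 473 and from 826 to 331 FPKM (-0.66). S100a11 went from 488 to 351, from 472 to 380 and from 489 to 229 FPKM (-0.70). The miR-31 library with TGF-β2 held the lowest value for each of these genes. Of 8 S100 genes, a set chosen after values were seen, 3 passed -0.5, beside 0.671% of all genes, and the median was -0.27. Txnip, a thioredoxin-binding protein that follows glucose, went from 79.2 to 60.9, from 43.1 to 28.1 and from 41.9 to 16.9 FPKM (-0.78). For Txnip the negative control was well above both microRNA inhibitors already without TGF-β2.

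**Figure D4:**
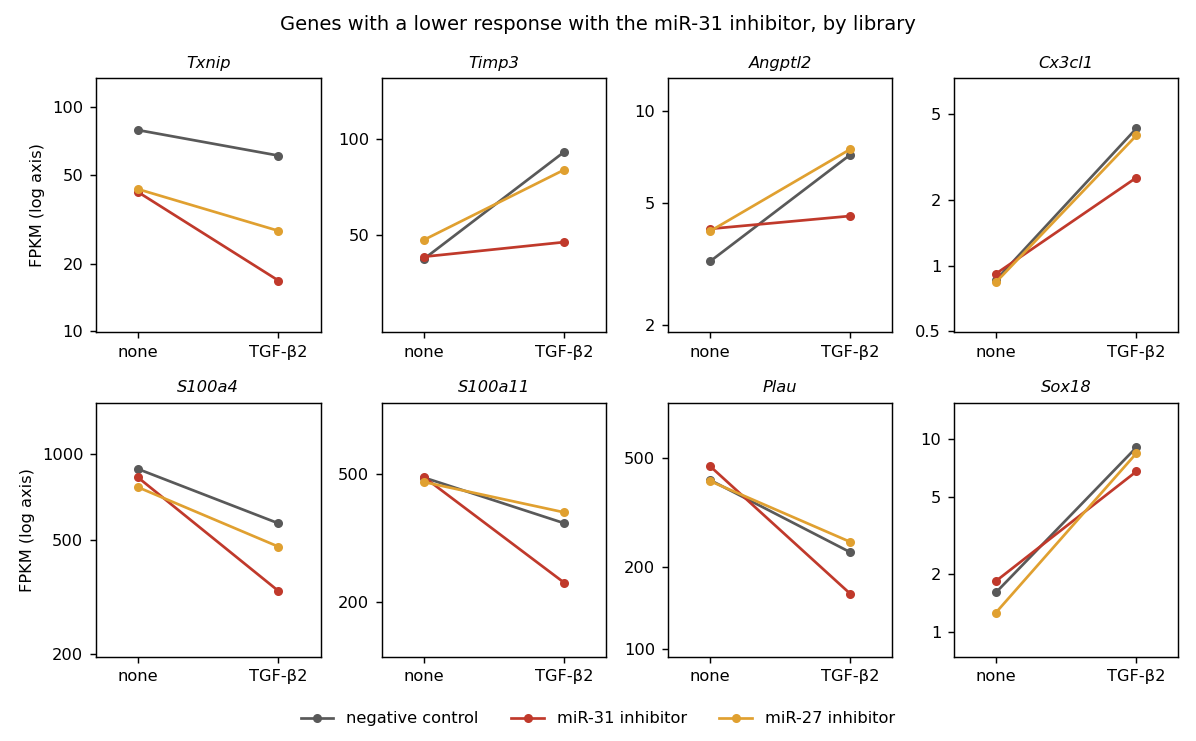
FPKM on a log axis without and with TGF-β2 for 8 genes with a lower response, with a line for each inhibitor and 1 library at each point. In every panel the red miR-31 inhibitor point with TGF-β2 is the lowest of the 3, and for Timp3 and Angptl2 its line is nearly flat (42.7 to 47.5 and 4.12 to 4.54 FPKM).

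The 28 TGF-β and Smad genes had shifts from -0.27 to 0.10 with a median of -0.05, and 8 lay above 0, beside 5169 of all 11771 genes. None passed 0.5 in either direction, beside 176 higher and 79 lower of all genes, so for 28 genes this count is near the share of all genes. The largest shifts in size were Tgfb1 (-0.27), Itgb5 (-0.25), Tgfb3 (-0.25) and Ski (-0.20), all lower and set apart. Smad7, the inhibitory Smad, rose to 8.18, 10.9 and 10.5 FPKM under the negative control, miR-27 and miR-31 inhibitors (shift 0.08), and Ctgf, a matricellular protein, to 99.8, 105 and 118 FPKM (-0.01). Both rose in every arm, and neither was set apart.

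Of matrix, contractile and mesenchymal genes only single members passed 0.5. Over all genes 1.50% were higher and 0.671% lower by that much, so such low counts do not distinguish these lists. Of 28 matrix genes 1 (Timp3) passed -0.5, 3 lay above 0, and the median was -0.13. Fbln2, a matrix protein of vessels, rose to 44.6, 47.9 and 34.0 FPKM from 3.31, 3.58 and 3.59 FPKM (shift -0.48), and the fibronectin gene Fn1 to 202, 218 and 210 FPKM (-0.21, not set apart). Of 14 contractile genes 0 passed, with a median of -0.08. Acta2, smooth muscle actin, rose from 0.134 to 16.7, from 0.158 to 11.7 and from 0.113 to 10.2 FPKM under the negative control, miR-27 and miR-31 inhibitors (-0.39, or -0.13 against the miR-27 response alone and -0.64 against LNA-NC alone), and the miR-27 and miR-31 arms were closer to each other than to the negative control. Of 15 mesenchymal genes S100a4 alone passed, with a median of -0.19, and the transition factor Snai2 lay on the other side at 0.49.

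Among 34 endothelial identity genes the median shift was -0.09, and 11 lay above 0, beside 5169 of all 11771. Sox18 alone passed -0.5 and 0 passed 0.5 upward. For 34 genes these counts are near the share of all genes (0.671% lower and 1.50% higher). Sox18, an endothelial transcription factor, rose in every arm, to 9.08, 8.46 and 6.80 FPKM from 1.60, 1.26 and 1.83 FPKM under the negative control, miR-27 and miR-31 inhibitors (shift -0.55). Notch4, a receptor of endothelial cells, fell to 6.84, 6.69 and 4.82 FPKM from 11.6, 10.6 and 12.5 FPKM (-0.58), with a place in the table that spans many other genes. Klf4 (0.38, or 0.24 against LNA-NC alone) and Klf2 (0.34), flow-responsive factors, had small shifts upward. Of 286 genes that rose by at least 1 on average in the comparison arms, 190 (66.4%) rose less with the miR-31 inhibitor, with a median shift of -0.08. Of 233 genes that fell by at least 1, 92 (39.5%) fell less, with a median of -0.04. Chosen on the responses of the other arms in the same way, the shares were 41.4% and 59.9% for the negative control and 54.9% and 65.8% for the miR-27 inhibitor.

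Genes of mitosis were lower as a group by a small amount. All 34 cell cycle and mitosis genes had a shift below 0, beside 5169 of all 11771 genes above 0. Their median was -0.20, and 1 lay past -0.5, beside 0.671% of all genes. That gene was Ccnf, a cyclin that acts in protein turnover, at 32.8, 29.1 and 19.4 FPKM with TGF-β2 under the negative control, miR-27 and miR-31 inhibitors, from 37.1, 33.2 and 34.3 FPKM (-0.61). Plk1, a mitotic kinase, was at 35.5, 35.1 and 26.5 FPKM with TGF-β2 (-0.39). The miR-31 library with TGF-β2 was the lowest for both. The 34 replication genes showed no such lean, with a median of -0.01, 16 above 0 and Cdc6, a licensing factor, at 0.51. Replication-dependent histone genes had a median of -0.31 with 0 of 20 above 0 and 3 past -0.5, among them Hist1h1b (-0.54). Hist1h4c had a shift of -0.53 but was not set apart. Histone genes have near-identical copies and short transcripts that FPKM measures poorly.

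**Figure D5:**
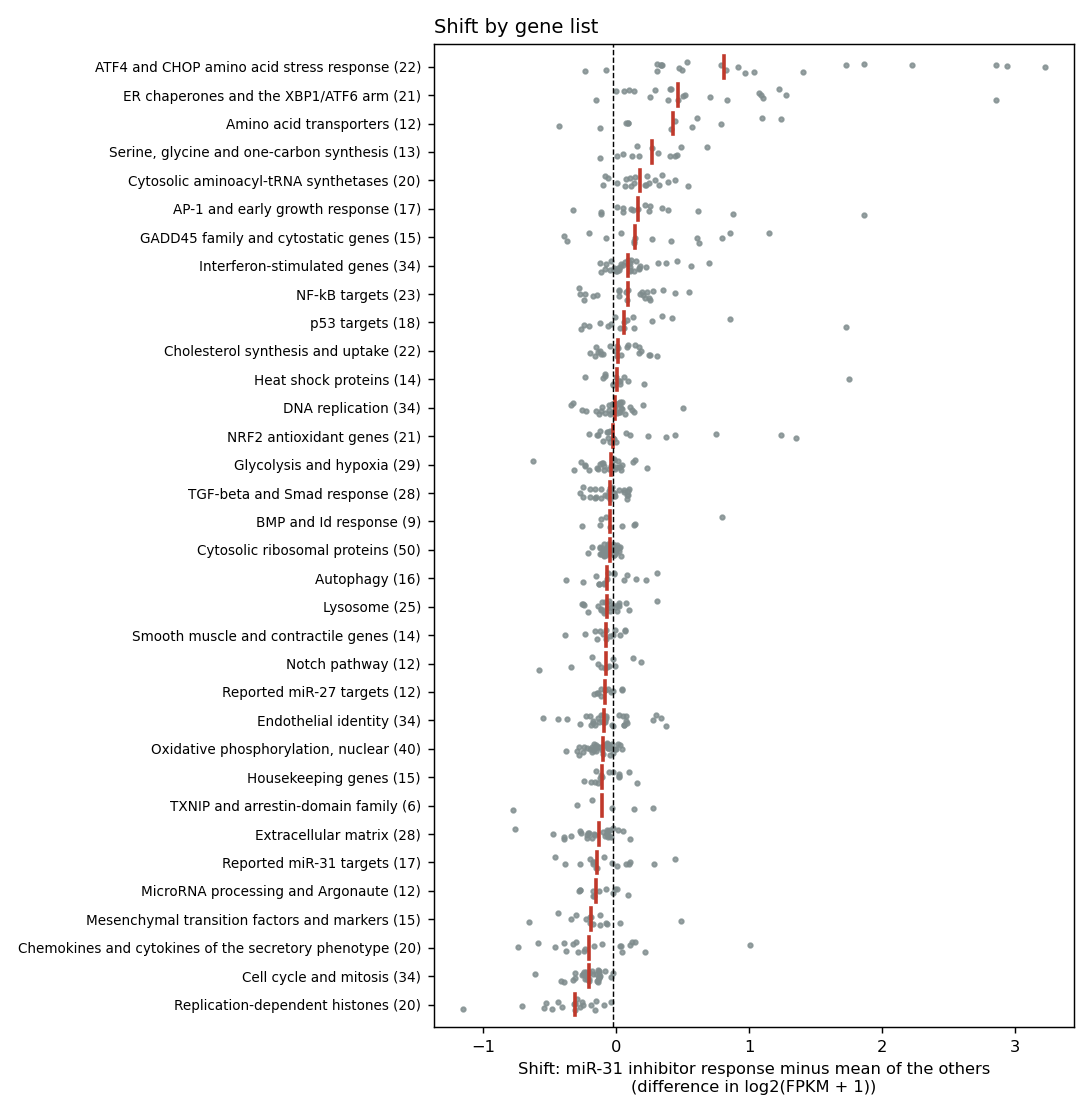
Each dot is the shift of a gene, the miR-31 inhibitor response minus the mean of the others in log2(FPKM + 1), for lists with at least 6 genes used (number in brackets). Red bars are list medians and the dashed line is the median of all 11771 genes (-0.02); the ATF4 and CHOP list has the highest median (0.81) and the histone list the lowest (-0.31).

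Some lists had medians near that of all genes, though single members spread more widely. The 50 cytosolic ribosomal protein genes had shifts from -0.21 to 0.03 with a median of -0.05, and the 15 housekeeping genes a median of -0.11. The 40 oxidative phosphorylation genes had a median of -0.10, the 22 cholesterol genes of 0.01 and the 29 glycolysis and hypoxia genes of -0.04, with Ankrd37 (-0.62) the only member of these 5 lists past 0.5 in size. The medians of these 5 lists thus ran from -0.11 to 0.01. Shifts above 0 were held by 6 of 50 ribosomal, 3 of 40 oxidative phosphorylation and 5 of 15 housekeeping genes. The counts were 13 of 22 for cholesterol and 8 of 29 for glycolysis and hypoxia, beside 5169 of all 11771 genes. The ribosomal, oxidative phosphorylation and housekeeping lists thus leaned below 0 by a small amount. Single members ran from -0.24 to 0.16 in the housekeeping list and from -0.37 to 0.04 in the oxidative phosphorylation list. The ranges were -0.20 to 0.31 for cholesterol and -0.62 to 0.23 for glycolysis and hypoxia, so the medians do not give the spread of single genes.

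Both miR-31 target genes that the series' study follows had a shift under 0.5. Stk40, a pseudokinase linked to NF-κB control, went down in every arm and least in the miR-31 arm, with a shift of 0.44, which was 0.69 with a pseudocount of 0.1. Its difference from the mean of the other inhibitors was 0.66 with TGF-β2 and 0.21 without it. Vav3, an exchange factor of small GTPases, fell in every arm, with a shift of 0.11. Sites are printed because the 3′ UTRs of both hold the seed match TCTTGCC (capitals), from GENCODE vM21 on GRCm38, at chr4:126139675-126139697, chr4:126140049-126140071 and chr4:126140354-126140376 (plus strand) for Stk40 and chr3:109685588-109685610 (plus) for Vav3.
Stk40 site 1: aggagcccTCTTGCCagttcctc
Stk40 site 2: gatgcccgTCTTGCCagaaacgc
Stk40 site 3: gggccaccTCTTGCCagcagtag
Vav3 site: agactttgTCTTGCCtgtctgta
Of 17 reported miR-31 targets, 0 passed 0.5 in either direction, beside 176 higher and 79 lower of all 11771 genes. For 17 genes this count is near the share of all genes. Their median shift was -0.15, beside -0.02 for all genes.

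The seed match was found in the 3′ UTR of 18 of 125 named genes with a response higher by at least 0.5 (14.4%), of 5 of 50 with a lower one (10%) and of 1319 of 9940 named genes used (13.3%). In the smaller sets the share was 1 of 23 named genes higher by at least 1 (4.35%), 1 of 22 of the ATF4 and CHOP list (4.55%) and 4 of 21 of the ER list (19.05%). The median length of the 3′ UTR was 870 bases in genes higher by at least 0.5, 1057 in lower ones and 1198 in all. The median shift was -0.03 for genes with a match and -0.02 for genes without one. Among the stress genes above, Xbp1, Manf, Slc1a4 and Hmox1 held a match and Ddit3, Chac1, Trib3 and Herpud1 held none.

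Some of the largest shifts rest on names that the table separates poorly. Hexdc, a hexosaminidase gene, had a shift of -3.52 and was at 20.7 FPKM in the miR-31 library without TGF-β2 and at 14.2 FPKM in the negative control with it, against 2.79 to 2.92 FPKM in the other 4. It shares its place with BC017643 (-0.01) and 1110031I02Rik (-0.07), whose shifts are near 0. Myt1 (-1.10, or -3.64 with a pseudocount of 0.1) was at 0.0049 FPKM in the miR-31 library with TGF-β2 and shares its place with Pkmyt1 (0.07) and Paqr4 (-0.11). The unnamed model BC128282 (4.83, not set apart), Scarna3a (3.38), a small RNA, and Hist1h2ap (-3.76), a histone gene, also had large shifts. Hist1h2ap was at 0.252 and 0.0743 FPKM in the miR-31 arm, without and with TGF-β2. Of the 176 and 79 shifted names, 82 and 35 share most of their place with another name, and 40 and 26 are short RNAs, histones, joined names or unnamed models.

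A further 45 names with a mean of at least 1 FPKM were left out because a library was listed at 0. Of these, 10 were at 0 in the miR-31 library with TGF-β2 alone, 7 of them named genes, against 0 to 3 in each of the other 5 libraries. Rbbp7, a chromatin protein, was listed at 0 there and at 166 to 187 FPKM in the other 5, and Nolc1 and Rbfox2 were likewise at 0 there alone. Ubiquitous genes at exactly 0 may be failed estimates, so no response was read from them. With all 45 names kept, 23 genes in place of 8 had a response lower by at least 1.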

How the data were processed

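RNA depleted of ribosomal RNA was made into directional libraries from MS-1 cells under 6 conditions, per the labels' protocols. The authors deposited 1 table of FPKM per gene name and library. Cufflinks 2.1.1, TopHat2 2.0.9 and build mm9 are listed in the submitters' processing notes, without their settings. Annotation, counting options and fragment totals are not given in the sources used here. Depth relative to the first library was read from the spacing of values under 0.05 FPKM.

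Values were used as deposited on log2(FPKM + 1) with Python 3.11.15 and pandas 2.3.3. A pseudocount of 1 understates changes of low genes. Groups came from the sample titles. Each condition had 1 library, so no test or error was computed. The calculation was tested on simulated data with planted shifts.

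The members and the 38 gene lists were chosen with earlier results of these data known, and 4 further groups after values were seen. Named genes were the 15 largest shifts of at least 1 each way among set-apart genes, without short RNAs, histones, joined names and unnamed models (only 2 qualified below), the 4 largest in each list, and the study's followed genes. Other names were chosen after their values were seen. Places are on mm9 with starts counted from 1. Of 10120 named genes used, 8114 matched a RefSeq promoter and 9940 a GENCODE 3′ UTR. A few named genes are not reported here.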

Additional observations from a re-analysis of the deposited data

Results flagged for a closer look

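Among the genes named in the text, 24 had a shift of at least 0.5 in size, were set apart and had a response with the miR-31 inhibitor in the opposite direction to both other responses. Over all shifted genes this held for 84 of 176 higher and 31 of 79 lower ones. The difference was not tested for any of them, because each condition has 1 library. Among genes that went up with the miR-31 inhibitor and down with both others were stress genes: Ddit3 (shift 3.23), Chac1 (2.94), Trib3 (2.22), Atf3 (1.86), Hspa1b (1.75), Sesn2 (1.73), Ppp1r15a (1.04), Atf4 (0.97), Jdp2 (0.82) and Hmox1 (0.75). The amino acid carriers Slc7a11 (1.24) and Slc1a4 (1.10) did the same, although Slc7a11 was level under the negative control at 3.96 FPKM. So did the host transcripts Snhg12 (1.21) and Snhg1 (1.12), the chemokine gene Cxcl2 (1.00), the growth genes Ier2 (0.88) and Myc (0.62), the interferon gene Mx1 (0.56) and the replication gene Cdc6 (0.51). Genes that went down with the miR-31 inhibitor and up with both others were the histone genes Hist1h1b (-0.54), Hist1h3a (-0.71), Hist1h2bc (-1.15) and Hist1h2ap (-3.76), and Hexdc (-3.52). Hist1h2bc and Hexdc were also high in the miR-31 library without TGF-β2, at 118 and 20.7 FPKM. Hist1h2ap was near the floor in the miR-31 arm, at 0.252 FPKM without and 0.0743 FPKM with TGF-β2. Its shift rests on 38.5 FPKM under LNA-NC and 4.71 FPKM under the miR-27 inhibitor with TGF-β2.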

How the results depend on the processing

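All 47 shifts of at least 0.5 among genes chosen by the naming rule, and the ATF4 and CHOP median (0.81, from 0.66 to 0.83), kept their sign under every alternative tried. The alternatives were other pseudocounts, filters, scaling and reference responses. For single genes this was largely fixed in advance and is not a check of the shifts. A response above both or below both others keeps its sign against either alone, and filters leave a gene's own shift unchanged. The scaling factors lay between 0.99 and 1.01. Counts were less stable. With a pseudocount of 0.1 the genes shifted by at least 1 were 53 higher and 18 lower, and 131 were lower by at least 0.5. At a mean of 5 FPKM 4 were lower by at least 1 and 106 higher by at least 0.5. With names listed at 0 kept, 23 were lower by at least 1, without the demand to be set apart 15, and with short RNAs, histones and unnamed models left out 2. Median-ratio scaling moved the median of all genes from -0.02 to -0.01. Myt1 moved from -1.10 to -3.64, Egr1 from 0.62 to 1.18, Mx1 from 0.56 to 0.97 and Stk40 from 0.44 to 0.69 with a pseudocount of 0.1. No paired analysis was possible because each condition has 1 library. Small shifts of low genes and of short or shared names are the least certain.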
